A study of Mus musculus with 15 samples.

Results

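DNA replication and G1-S genes are treated here as a set of 46 listed mouse genes that build, load and feed the replication fork or control the entry into S phase. The genes were listed by symbol for these roles, and for each gene the probe set that was brightest on average over all arrays was used. All 46 of the 46 genes had a probe set and passed the filter on dim genes, out of 18193 genes with a probe set and 16860 genes tested.

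Before S phase, the origin recognition complex, Cdc6 and Cdt1 load the Mcm2-7 helicase onto DNA, and the helicase is switched on when Cdc45 and the GINS complex join it. Polymerases, their sliding clamp and the enzymes that make deoxynucleotides then copy the genome. Cyclin D1 and cyclin E with their kinases release E2F transcription factors, which drive many of these genes as cells leave G1. In the healthy adult kidney most cells rest outside the cycle, and obstruction of the ureter is a standard injury that brings interstitial and tubular cells back into it.

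The study measured polysomal RNA of Col1a1-eGFPL10a mice on 15 one-colour arrays, in 5 groups of 3 arrays. In every group the mice carried Tg:Col1a1-eGFPL10a, in which promoter and enhancer sequence of collagen 1α1 drives eGFP fused to the ribosomal protein L10a, on the strain C57/129sv, with sex given as both and the developmental stage as P14-P300. The bound fraction is the RNA pulled down with the tagged ribosomes, labelled as kidney pericytes, and the unbound fraction is labelled as kidney medulla. Bound RNA was measured in sham kidneys on day 0 (arrays 1 to 3) and in kidneys after unilateral ureteral obstruction (UUO) on day 2 (arrays 7 to 9) and day 5 (arrays 10 to 12). Unbound RNA was measured after UUO on day 5 (arrays 13 to 15) and in sham kidneys on day 0 (arrays 4 to 6). Whether the 3 arrays of a group stand for 3 different mice is not in the labels, so p-values rest on a spread between arrays that may be technical. In such bulk samples, more cells that hold a message and more of the message per cell cannot be told apart.

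The median deposited intensity of an array lay between 16.4 and 198.7. Arrays 6, 9, 12 and 15 were bright, with hybridization controls at 12114 to 12905 against 4727 to 5864 on the other arrays, and the bound day 0 group holds none of them. Array 11 (bound, day 5) had a Gapdh 5′ to 3′ ratio of 0.0269 against 0.178 to 0.583 on the others. Arrays of a group correlated at 0.918 to 0.973 after normalization. Levels below are normalised log2 signals, log2(intensity + 1) after quantile normalization, and a floor for each array, at 3.41 to 5.09, is the highest of 27 negative-control probe sets.

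Markers were set against the labels. The summed normalised signal of 10 fibroblast and pericyte markers was 36900 to 38900 in bound RNA on day 0, 50600 to 64000 on day 2 and 60800 to 64500 on day 5, and 35800 to 37800 in unbound RNA on day 5 and 9850 to 13600 on day 0. None of the 10 was at or below the floor in any group. The 4 measured markers of podocytes, cells that the label of the bound fraction does not name, summed to 17000 to 26900 in bound and 3070 to 3740 in unbound RNA on day 0. Markers of macrophages are given beside the results they move with.

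Promoter sequences of 5 genes are shown because these genes had the smallest adjusted p among those called in bound RNA on both days with a RefSeq entry in the table used here (build GRCm38.p6). The stretches are the 120 bases before the start site of Uhrf1 (chr17:56303217-56303336, plus strand), Mcm6 (chr1:128359706-128359825, minus strand), Tk1 (chr11:117826015-117826134, minus strand), Rrm1 (chr7:102441575-102441694, plus strand) and Ccne1 (chr7:38107491-38107610, minus strand), each written 5′ to 3′ on the strand of the gene. Capitals mark every match to TTTNNCGC on either strand, a form of the site that E2F factors are known to bind.
Uhrf1: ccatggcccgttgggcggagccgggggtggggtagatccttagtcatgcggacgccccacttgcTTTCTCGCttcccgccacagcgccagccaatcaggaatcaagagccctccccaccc
Mcm6: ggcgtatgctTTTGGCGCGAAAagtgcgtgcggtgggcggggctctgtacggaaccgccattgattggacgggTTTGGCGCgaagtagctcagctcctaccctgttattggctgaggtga
Tk1: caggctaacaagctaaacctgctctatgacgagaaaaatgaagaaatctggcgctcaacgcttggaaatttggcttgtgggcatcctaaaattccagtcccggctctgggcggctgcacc
Rrm1: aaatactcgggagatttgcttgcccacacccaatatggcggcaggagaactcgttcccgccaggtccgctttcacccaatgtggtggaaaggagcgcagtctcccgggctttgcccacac
Ccne1: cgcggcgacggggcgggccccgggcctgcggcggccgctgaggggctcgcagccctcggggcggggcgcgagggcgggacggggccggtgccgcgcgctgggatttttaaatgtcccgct
The Uhrf1 stretch holds 1 match, whose first base lies 56 bases before the start. The Mcm6 stretch holds 3 matches, of which the first 2 overlap on opposite strands. The stretches of Tk1, Rrm1 and Ccne1 hold these letters nowhere.

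Promoters of 300 bases were available for 36 of the 46 genes, with 44 start sites among them. TTTNNCGC was found on either strand in 18 of the 44 (40.9%), against 1698 of all 32851 promoters in the table (5.17%). The promoters of these genes were richer in G and C, with a median of 57.5% against 52.7% for all, and among the 11735 promoters between their GC quartiles the letters were found in 855 (7.29%). CCAAT stood in 26 of the 44 (59.1%) against 37.4% of all promoters, and TTTGAA, letters shared with the CHR element of mitotic genes, in 5 of the 44 (11.4%) against 17.9%. Of the 25 genes with a promoter that rose in bound RNA on day 5, 12 held TTTNNCGC, and of the 11 that did not pass, 5 did. A match is a run of letters and not a measured binding site.

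The first comparison asked how these messages in tagged, ribosome-bound RNA differ between obstructed kidneys on day 5 and sham kidneys. In bound RNA 31 of the 46 genes rose on day 5, and 1, Ccnd1, fell (limma, adjusted p under 0.05). Of all 16860 genes tested, 13.7% were called higher and 10.0% lower, 23.8% in all. The median log2 difference of the 46 was 1.25, against 0.12 over all genes tested, and it is the same with the 2 genes that had a group below the floor set at their bound. In 35 of the 46 all 3 day 5 arrays lay above all 3 day 0 arrays, which held for 23.7% of all genes, and in 2 of the 46 all lay below, which held for 16.8%. The second comparison, of day 2 with the same day 0 arrays, had 30 genes called higher and 0 lower, against 5.60% and 3.67% of all genes, with a median of 1.51 against 0.00. Here 33 of the 46 had day 2 arrays all above the day 0 arrays (11.4% of all genes) and 0 all below (10.1% of all genes). The median level of the 46 genes on an array was 8.10 to 8.30 in bound RNA on day 0, 9.50 to 10.44 on day 2 and 9.77 to 10.10 on day 5. Without the 4 bright arrays 20 genes were called for day 2 and 23 for day 5, where 3.17% and 13.4% of all genes were. With each contrast fitted on its own 2 groups alone 7 and 20 were. The share of all genes called in those fits is not given here, so the lower counts cannot be set against it.

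**Figure D1:**
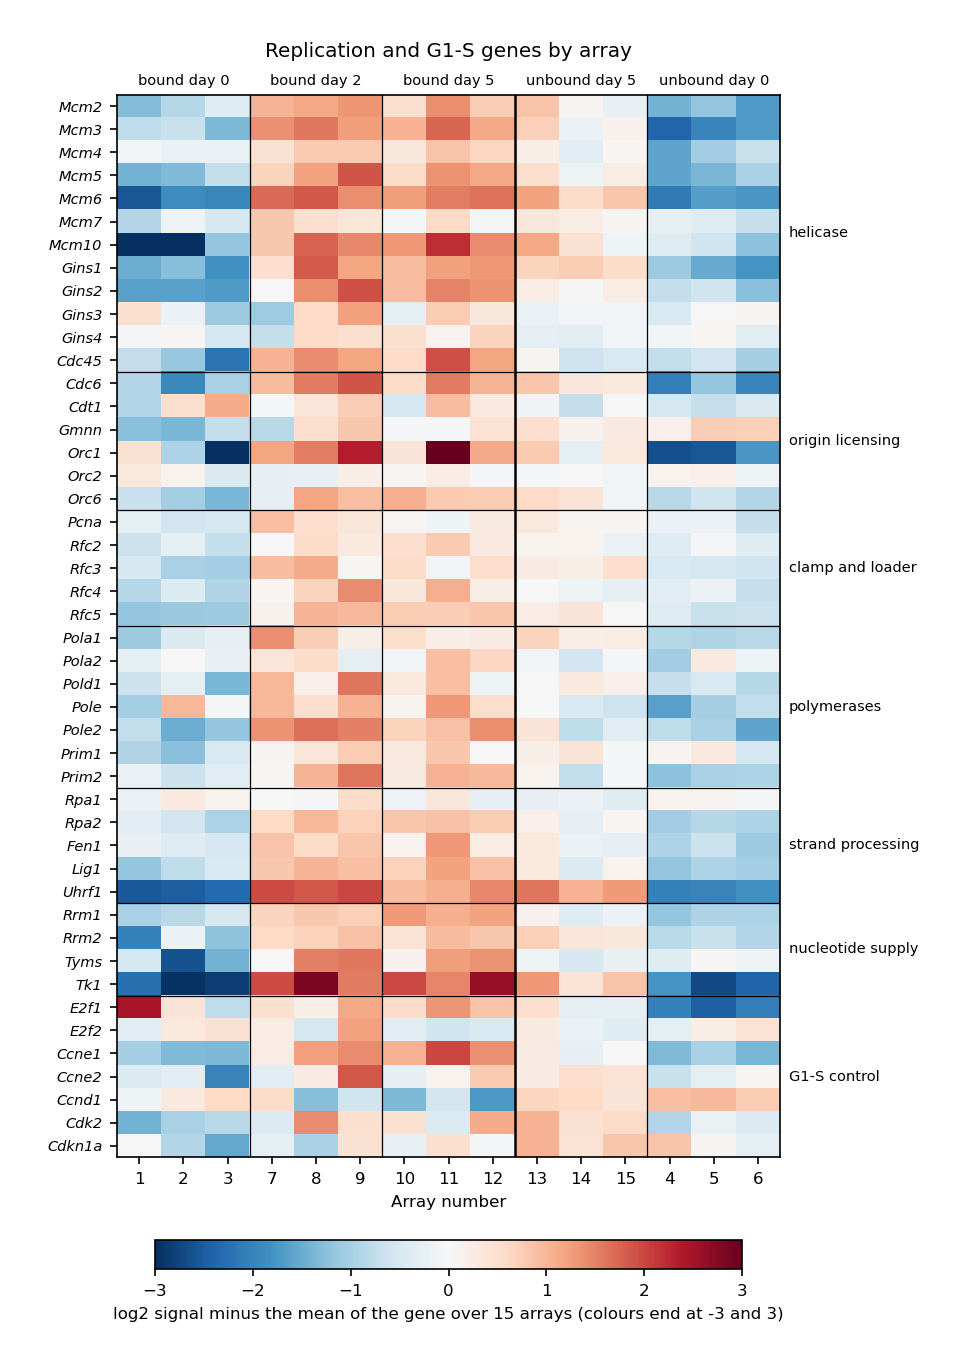
Each row is 1 of the 46 genes, grouped by role, and each column an array, ordered as bound day 0, 2 and 5 and then unbound day 5 and day 0. Colour gives the normalised log2 signal minus the mean of the gene over 15 arrays. Most rows are blue on the day 0 arrays of bound RNA and red on days 2 and 5, whereas Ccnd1 runs the other way and Rpa1 and Orc2 show little contrast.

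Of the 12 genes of the replicative helicase, 9 rose on day 5 and the same number on day 2, while Gins3 and Gins4 did not pass on either day. Mcm6, a subunit of the Mcm2-7 ring, had bound levels of 6.46, 7.14 and 7.07 on day 0, 10.73, 10.89 and 10.43 on day 2, and 10.29, 10.56 and 10.65 on day 5. Its day 0 arrays lay far below all arrays of both later days, and it was 13.9-fold higher on day 2 (adjusted p = 5.05e-06) and 12.2-fold higher on day 5 (log2 difference 3.61 ± 0.26 SE, adjusted p = 4.9e-06). Mcm3, another subunit of the ring, had 8.96, 9.06 and 8.38 on day 0, 11.10, 11.29 and 10.97 on day 2, and 10.76, 11.46 and 10.86 on day 5. Its groups did not overlap either, and the differences were 2.32 ± 0.30 on day 2 (adjusted p = 0.000506) and 2.22 ± 0.30 on day 5 (adjusted p = 0.000397). Mcm2 had 8.18, 8.63 and 9.13 on day 0, 10.51, 10.64 and 10.81 on day 2, and 9.96, 10.87 and 10.22 on day 5. Mcm2 and Mcm5 rose by 2.00 and 2.42 on day 2 and by 1.70 and 2.18 on day 5, with all later arrays of Mcm2 above day 0. The 2 other ring subunits moved less: Mcm4 was 0.84 on day 2 (adjusted p = 0.0582) and 0.78 on day 5 (adjusted p = 0.0437), and Mcm7 was 1.07 on day 2 (adjusted p = 0.0199) and 0.68 on day 5 (adjusted p = 0.069).

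Mcm10, which helps the loaded helicase to start and ties it to polymerase alpha, had bound levels of 2.68, 2.81 and 5.15 on day 0, 7.12, 8.09 and 7.75 on day 2, and 7.62, 8.52 and 7.72 on day 5. Its day 0 mean lay at or below the floor, and all later arrays lay above it. Measured from the floor, it was at least 9.48-fold higher on day 2 and at least 11.6-fold higher on day 5. Among the GINS subunits, Gins1 had 6.83, 7.03 and 6.49 on day 0, 8.82, 10.16 and 9.50 on day 2, and 9.24, 9.55 and 9.61 on day 5. Gins2 had 6.43, 6.41 and 6.36 on day 0, 8.03, 9.45 and 9.97 on day 2, and 8.97, 9.53 and 9.39 on day 5. In both, day 0 stood clear of the later days and array 7 was the lowest of day 2. Gins1 was 2.71 ± 0.31 higher on day 2 and 2.69 ± 0.31 higher on day 5, and Gins2 2.75 ± 0.39 and 2.90 ± 0.39, all with adjusted p between 0.000155 and 0.00104. The partners Gins3 and Gins4 had differences of 0.50 and 0.28 on day 2 and 0.54 and 0.58 on day 5, with adjusted p from 0.207 to 0.652. Cdc45, the third part of the active helicase, had 6.11, 5.67 and 4.63 on day 0, 7.85, 8.23 and 8.01 on day 2, and 7.40, 8.74 and 8.01 on day 5, a difference of 2.57 ± 0.40 on day 2 and 2.58 ± 0.40 on day 5. Its other probe set, above the floor in 4 groups, gave -0.44 on day 2 and 0.65 on day 5. With the mean of all Cdc45 probe sets both calls ended, at 1.06 and 1.62 (adjusted p = 0.266 and 0.0508).

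Among the 6 origin licensing genes, 3 rose on day 2 and 4 on day 5. Cdc6, the loader of the helicase, had 5.92, 4.88 and 5.84 on day 0, 7.75, 8.36 and 8.69 on day 2, and 7.37, 8.37 and 7.82 on day 5, with no overlap between day 0 and either day. It was 2.72 ± 0.38 higher on day 2 (adjusted p = 0.000917) and 2.31 ± 0.38 higher on day 5 (adjusted p = 0.00147). Cdt1, which works with Cdc6, differed by 0.10 and -0.01 (adjusted p = 0.924 and 0.99), and the spread of its day 0 arrays enclosed the day 5 arrays. Gmnn, the inhibitor of Cdt1, had 10.34, 10.33 and 10.82 on day 5, above its 9.15, 9.03 and 9.67 on day 0 (1.21 ± 0.38, adjusted p = 0.0366). In the origin complex Orc6 rose by 1.62 on day 2 and 1.89 on day 5, and Orc1 was at least 4.25-fold and at least 3.88-fold higher. Orc2 differed by -0.09 and 0.08 in the probe set used. Its other probe sets, above the floor in every group, disagreed, with 1.39 and 1.47 in one and -0.37 and -0.53 in the other. Whether Orc2 moved with Orc1 and Orc6 is therefore not settled. For Orc1 the sham arrays spread from 1.79 to 5.38 around the floor, so its day 0 level has only a bound. Its lowest day 5 array, at 5.32, lay below the highest sham array, so these groups overlapped. The other Orc1 probe set was at or below the floor in every group.

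The clamp Pcna and the loader subunits Rfc2, Rfc3, Rfc4 and Rfc5 are 5 genes of the set. All 5 rose on day 2, and these 4 loader subunits rose on day 5. The large loader subunit, Rfc1, is outside the set and was lower in bound RNA on day 5, at -0.95 (limma, adjusted p = 0.0291). Pcna, the sliding clamp, had 11.59, 11.29 and 11.33 on day 0, 12.78, 12.38 and 12.23 on day 2, and 11.91, 11.74 and 12.14 on day 5. Day 2 lay above both other days, and the difference from day 0 was 1.06 ± 0.23 on day 2 (adjusted p = 0.0122) and 0.52 ± 0.23 on day 5 (adjusted p = 0.113). Rfc5, a loader subunit, had 7.45, 7.49 and 7.53 on day 0, 8.74, 9.63 and 9.57 on day 2, and 9.38, 9.34 and 9.43 on day 5. The arrays of a day lay close together except array 7, and Rfc5 was 1.83 ± 0.24 higher on day 2 and 1.89 ± 0.24 higher on day 5 (adjusted p = 0.000551 and 0.000263). Rfc2, Rfc3 and Rfc4 rose by 0.83, 1.51 and 1.44 on day 2 and by 1.08, 1.15 and 1.28 on day 5.

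Of the 7 polymerase and primase genes, 4 rose on each day. Pole2, the accessory subunit of the leading-strand polymerase, had 6.47, 5.72 and 6.06 on day 0, 8.55, 8.86 and 8.72 on day 2, and 7.88, 8.10 and 8.60 on day 5. Its groups did not overlap with day 0, at 2.62 ± 0.33 on day 2 (adjusted p = 0.000468) and 2.11 ± 0.33 on day 5 (adjusted p = 0.00105). The catalytic subunit Pole differed by 0.88 and 0.66 (adjusted p = 0.272 and 0.323), with arrays that overlapped day 0. Pold1, the catalytic subunit of the lagging-strand polymerase, rose by 1.67 on day 2 (adjusted p = 0.0181) and was 1.11 on day 5 (adjusted p = 0.0551). Polymerase alpha, which starts each new strand, rose in Pola1 by 1.36 and 0.91, and its partner Pola2 differed by 0.38 and 0.65 (adjusted p = 0.582 and 0.219). Primase, which lays down the RNA primers, rose in Prim1 by 1.28 and 1.23, and Prim2 was 1.28 on day 2 (adjusted p = 0.0509) and rose by 1.16 on day 5 (adjusted p = 0.0412).

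Of the 5 strand processing genes, 4 rose on both days and Rpa1 did not pass on either. Uhrf1, which reads hemimethylated DNA behind the fork and brings the maintenance methylase there, had 7.16, 7.22 and 7.35 on day 0, 11.65, 11.54 and 11.68 on day 2, and 10.61, 10.77 and 11.13 on day 5. The 3 days did not overlap at all, with day 2 highest. Uhrf1 was 20.8-fold higher on day 2 (4.38 ± 0.20, adjusted p = 3.1e-07) and 12.1-fold higher on day 5 (3.60 ± 0.20, adjusted p = 1.35e-06). Lig1, the ligase that seals Okazaki fragments, had 7.76, 8.17 and 8.47 on day 0, 9.73, 9.95 and 9.82 on day 2, and 9.62, 10.12 and 9.79 on day 5, a difference of 1.70 ± 0.25 on day 2 and 1.71 ± 0.25 on day 5. Fen1, the flap nuclease that trims those fragments, rose by 1.13 and 0.92. Rpa2, a subunit of the single-strand binding protein, rose by 1.37 and 1.43, whereas its partner Rpa1 differed by 0.11 and -0.08.

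All 4 genes of nucleotide supply rose on both days. Tk1, thymidine kinase of the salvage route, had 5.79, 5.08 and 5.19 on day 0, 10.01, 10.87 and 9.60 on day 2, and 10.02, 9.51 and 10.66 on day 5. No later array came near day 0, and Tk1 was 27.9-fold higher on day 2 (4.80 ± 0.41, adjusted p = 2.45e-05) and 26.1-fold higher on day 5 (4.71 ± 0.41, adjusted p = 2.24e-05). Ribonucleotide reductase makes deoxynucleotides from ribonucleotides, and its large subunit Rrm1 had 8.90, 9.03 and 9.38 on day 0, 10.53, 10.68 and 10.59 on day 2, and 11.14, 10.93 and 11.08 on day 5. In the probe set used, the 3 days of Rrm1 did not overlap, with day 5 highest. The differences were 1.50 ± 0.20 on day 2 (adjusted p = 0.000658) and 1.95 ± 0.20 on day 5 (adjusted p = 6.3e-05). The small subunit Rrm2 had 9.30, 11.15 and 10.11 on day 0, 11.91, 12.00 and 12.19 on day 2, and 11.76, 12.26 and 12.14 on day 5. Its widely spread day 0 arrays all lay below both later days, and it rose by 1.85 on day 2 (adjusted p = 0.00782) and 1.87 on day 5 (adjusted p = 0.00371). Tyms, thymidylate synthase, rose by 2.55 and 2.43. Its day 0 levels of 5.06, 2.99 and 4.18 lay close to the floor of those arrays. With the mean of all 4 Tyms probe sets the differences were 0.84 and 0.63 (adjusted p = 0.243 and 0.294), where the other 3 probe sets were at or below the floor in every group.

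**Figure D2:**
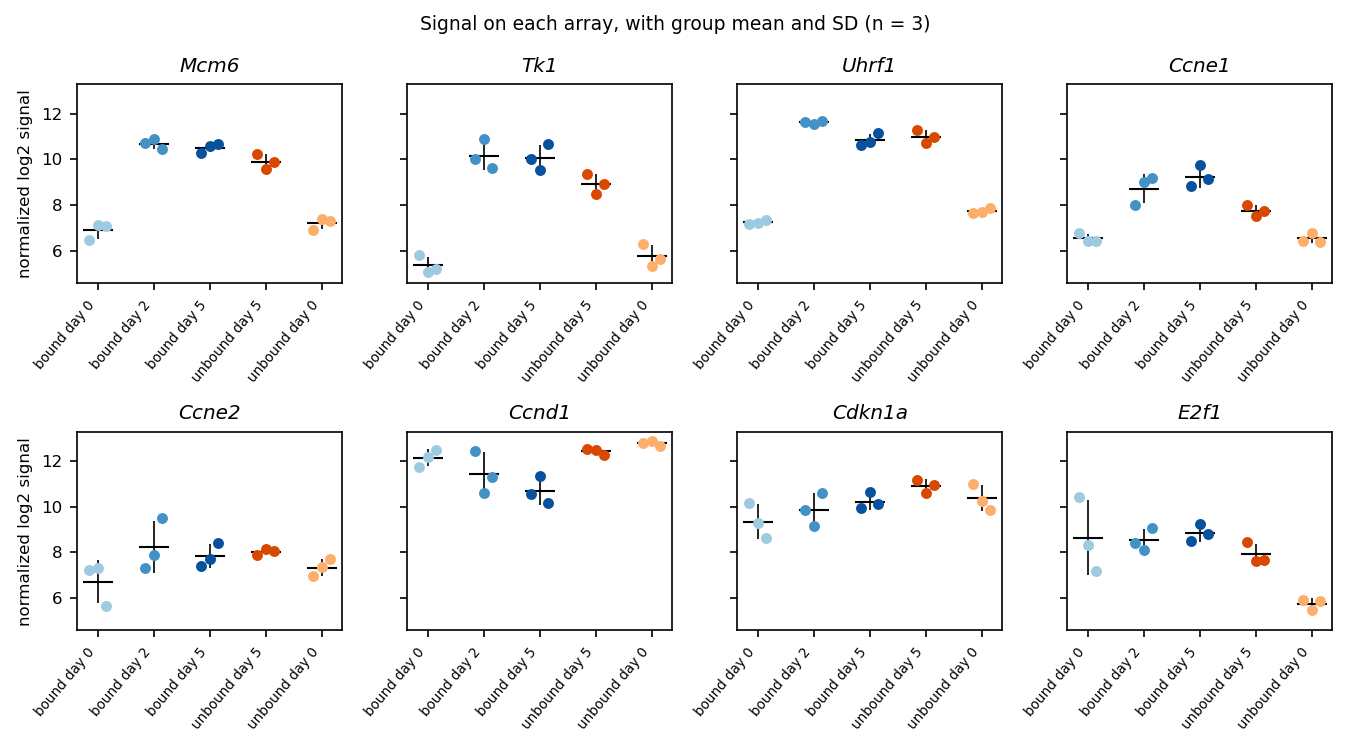
Points are the normalised log2 signals of 8 genes on each of 3 arrays in the 5 groups, with the mean as a bar and the SD as a line. Mcm6, Tk1, Uhrf1 and Ccne1 have day 0 arrays well under those of days 2 and 5, Ccnd1 is lowest in bound RNA on day 5, and E2f1 spreads from 7.17 to 10.41 in bound RNA on day 0.

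The 7 genes of G1-S control were the most mixed, with 1 called on day 2 and 3 on day 5. Ccne1, cyclin E1, which drives the start of S phase with Cdk2, had 6.76, 6.44 and 6.41 on day 0, 7.99, 8.99 and 9.18 on day 2, and 8.81, 9.76 and 9.13 on day 5. It was clear of day 0 on both days, at 2.18 ± 0.33 on day 2 (adjusted p = 0.00144) and 2.70 ± 0.33 on day 5 (6.48-fold, adjusted p = 0.000221). Ccne2, cyclin E2, had 7.21, 7.29 and 5.63 on day 0, 7.29, 7.88 and 9.50 on day 2, and 7.38, 7.72 and 8.42 on day 5. Array 9 was its highest, and it differed by 1.51 and 1.13 (adjusted p = 0.111 and 0.16). Cdk2, their kinase, was 1.57 on day 2 (adjusted p = 0.0501) and rose by 1.45 on day 5 (adjusted p = 0.0371).

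Ccnd1, cyclin D1, which acts earlier in G1, had 11.75, 12.17 and 12.48 on day 0, 12.44, 10.60 and 11.28 on day 2, and 10.54, 11.33 and 10.16 on day 5. The day 5 arrays all lay below the day 0 arrays, while on day 2 array 7 was as high as day 0 and the other two were not. Ccnd1 fell by 1.46 ± 0.41 on day 5 (adjusted p = 0.0247), and the difference was -0.69 on day 2 (adjusted p = 0.336). Both other Ccnd1 probe sets ran the same way on day 5, at -1.03 and -1.00. The call ended without array 2, 3, 10 or 12, with adjusted p of 0.0607 to 0.0876, and with arrays centred on their medians in place of quantile normalization, at -1.08 (adjusted p = 0.068). It also ended with the mean of all probe sets, at -1.16 (adjusted p = 0.0884). On its own 2 groups alone the adjusted p was 0.0551, and without the 4 bright arrays it was 0.15.

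Of the E2F activators, E2f1 had 10.41, 8.32 and 7.17 on day 0, 8.42, 8.11 and 9.07 on day 2, and 8.48, 9.25 and 8.80 on day 5. Its sham arrays spread so widely that they enclosed both later groups, with differences of -0.10 and 0.21 (adjusted p = 0.942 and 0.837). E2f2 differed by 0.16 and -0.61 (adjusted p = 0.853 and 0.276). Cdkn1a, the p21 inhibitor of cyclin-dependent kinases, had 9.92, 10.62 and 10.10 on day 5 against 10.14, 9.27 and 8.61 on day 0, which overlapped (0.87 ± 0.45, adjusted p = 0.18).

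Across these results, 16 of the 32 calls for day 5 held in all 24 other settings, those of Mcm2, Mcm3, Mcm5, Mcm6, Mcm10, Gins1, Gins2, Cdc6, Orc6, Rfc2, Rfc5, Pole2, Tk1, Lig1, Uhrf1 and Ccne1. Leaving out single arrays ended the call of Pola1 in 13 cases, Prim2 in 10, Mcm4 and Fen1 in 9, Cdk2 in 7, Gmnn in 6, Orc1 and Ccnd1 in 4, Rfc3 and Rfc4 in 2 and Prim1 in 1. For day 2 it ended the call of Orc1 in 11 cases, Rfc2 in 9, Fen1 in 4, Rfc4 and Prim1 in 3, Mcm7 and Pold1 in 2 and Orc6 and Pola1 in 1. The only day 2 calls that held in all 24 other settings were those of Mcm3, Mcm6, Gins1, Cdc6, Pole2, Tk1 and Uhrf1. Of 55 other probe sets of these genes, 37 lay above the floor in every group, and 32 of those 37 had the same sign as the probe set used for day 5 minus day 0. Exceptions included Fen1 (-0.34 against 0.92), Rpa2 (-0.83 against 1.43) and Gins3 (-1.08 against 0.54). The other measured probe set of Rrm1 gave 0.07 on day 5 and 1.68 on day 2, and those of Rrm2 gave 3.87 and 3.43 on day 5.

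**Figure D3:**
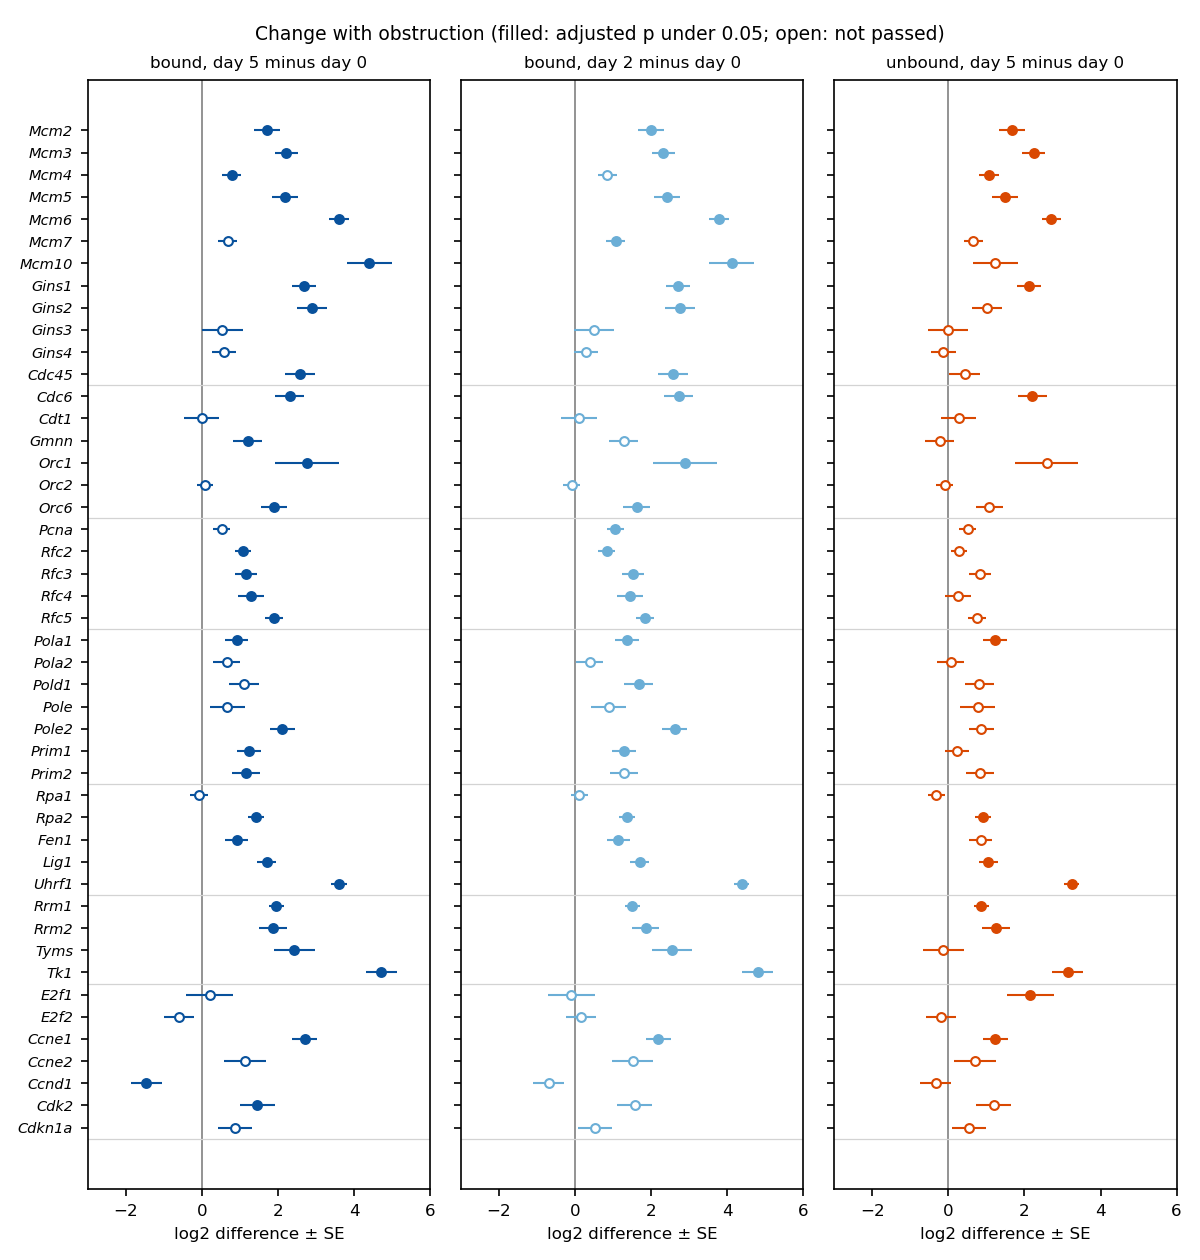
Points are log2 differences with their SE for the 46 genes, for bound day 5 and bound day 2 minus bound day 0 and for unbound day 5 minus unbound day 0, filled where the adjusted p was under 0.05. Filled points number 32, 30 and 16 in the 3 panels, and Ccnd1 is the lone filled point left of 0. The first 2 panels share the bound day 0 arrays.

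Day 5 was next set against day 2 within the bound fraction. None of the 46 genes passed (limma), where 0.587% of all genes were called, and 3 had an unadjusted p under 0.05, as did 16.2% of all genes. These 3 were Uhrf1 at -0.78 ± 0.20 (adjusted p = 0.11), Pcna at -0.54 ± 0.23 (adjusted p = 0.267) and Rrm1 at 0.45 ± 0.20 (adjusted p = 0.288). All 3 had day 5 arrays apart from day 2 arrays, lower for Uhrf1 and Pcna (5.19% of all genes) and higher for Rrm1 (9.49% of all genes). The other measured probe set of Rrm1 ran the other way, with means of 6.85 on day 2 and 5.24 on day 5. The median difference of the 46 genes was -0.10, against 0.09 over all genes. With arrays centred on their medians these were 0.10 and 0.30, so the sign of the median difference depends on the scaling. Array 7 was the lowest of the 3 day 2 arrays in 29 of the 46 genes.

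The unbound fraction holds the RNA left after the pull-down, from all cells of the tissue. In unbound RNA 16 of the 46 genes rose on day 5 and 0 fell (limma), against 6.44% and 3.93% of all genes. The median difference was 0.84, against 0.01 over all genes, and 31 genes had day 5 arrays all above day 0 (24.3% of all genes). Uhrf1 had 11.29, 10.72 and 10.96 on day 5 against 7.67, 7.69 and 7.87 on day 0, and was 9.48-fold higher (3.24 ± 0.20, adjusted p = 5.53e-06). Tk1 had 9.35, 8.46 and 8.90 against 6.29, 5.34 and 5.65 (3.14 ± 0.41, adjusted p = 0.000576), and Mcm6 had 10.25, 9.58 and 9.86 against 6.90, 7.38 and 7.29 (2.71 ± 0.26, adjusted p = 8.42e-05). In all 3 genes the day 5 arrays stood clear of day 0, as in bound RNA. E2f1, which did not pass in bound RNA, had 8.44, 7.63 and 7.66 in unbound RNA on day 5 against 5.90, 5.49 and 5.86 on day 0 (2.16 ± 0.62, adjusted p = 0.0448), a call that ended in 9 cases of leaving out 1 array. Tyms and Gmnn differed in unbound RNA by -0.13 and -0.23 (adjusted p = 0.913 and 0.77).

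The count of 16 in unbound RNA was 7 when array 4 or array 13 was left out, 10 when array 5 was, 9 when array 15 was, and 5 when the 4 bright arrays were, where 3.75% of all genes were called. It was 7 with arrays centred on their medians, where the median of all genes was -0.22. Over the same days the summed signal of 10 macrophage markers was 27300 to 31700 in unbound RNA on day 5 and 6550 to 9190 on day 0, with 7 of 10 higher. In bound RNA it was 2420 to 7510 on day 0, 4470 to 16800 on day 2 and 7000 to 17100 on day 5, with 3 of 10 higher on day 5 and 2 on day 2. Itgam was the macrophage marker at or below the floor in each bound group. Neutrophil markers summed to 55.5 to 107 in bound RNA on day 0, 817 to 4650 on day 2 and 653 to 2250 on day 5, with 3 of 4 higher on both days. Of these 4, Csf3r was at or below the floor in each bound group, and Mpo was in bound RNA on day 0. The markers of proximal tubule summed to 2250 to 3430 in bound RNA on day 5 against 10400 to 17700 on day 0, with 6 of 7 lower. In unbound RNA they summed to 7740 to 10300 on day 5 against 12200 to 21100 on day 0, with 2 of 7 lower. Between the fractions 0 of the 7 were called on day 0 (median bound minus unbound -0.46). On day 5, 1 of the 7 was lower in bound RNA (median -1.51). Podocyte markers summed in bound RNA to 4230 to 9820 on day 5 against 17000 to 26900 on day 0, with 4 of 4 lower. Lower in bound RNA on day 5 were also 5 of 6 markers of the loop and distal tubule, 4 of 6 of the collecting duct and 4 of 7 of endothelium. Lymphocyte markers summed to at most 270 in any bound array. The part of these cells in the results was not tested.

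**Figure D4:**
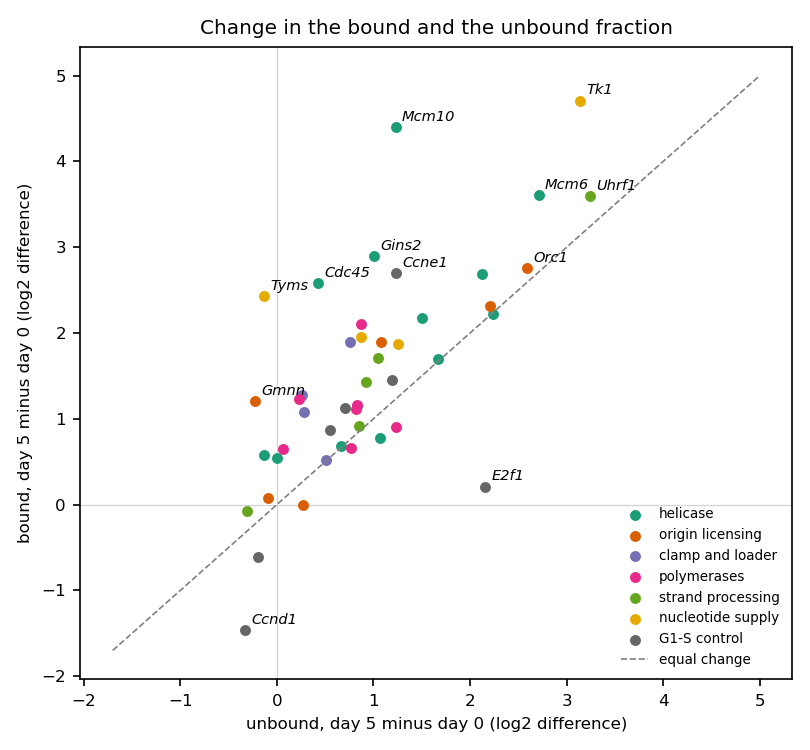
Each point is 1 of the 46 genes, with the day 5 minus day 0 log2 difference in bound RNA on the vertical axis and in unbound RNA on the horizontal axis, coloured by role. 38 of the 46 points lie above the dashed line of equal change, with Tyms and Cdc45 far above it and E2f1 far below. Mcm10 and Orc1, at or below the floor in bound RNA on day 0, stand at fitted values that are no measured size.

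Of the 31 genes that rose in bound RNA and the 16 that rose in unbound RNA on day 5, 15 were the same, and the remaining 1 in unbound RNA was E2f1. These 2 comparisons share no arrays, though bound and unbound RNA may come from the same kidneys, which the labels do not say. Across the 46 genes the differences in the 2 fractions correlated with r = 0.700 and rho = 0.669, a description over genes read on the same 6 arrays of each fraction. The difference was larger in bound RNA for 38 of the 46. The test of that difference itself, the change in enrichment of bound over unbound RNA, called 0 of the 46 genes (limma), where 0.0178% of all genes were called, and 14 had an unadjusted p under 0.05, as did 14.2% of all genes. The smallest p values belonged to Cdc45 at 2.16 ± 0.56 (adjusted p = 0.162) and Rrm1 at 1.08 ± 0.28 (adjusted p = 0.164). The other measured probe set of Rrm1 ran the other way, with bound minus unbound differences of -0.59 on day 5 and -0.26 on day 0. No size is given for Mcm10 and Orc1, whose bound day 0 level has only a bound. The median change was 0.46, against 0.09 over all genes. Without array 7, which is in neither day, 2 genes passed.

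On day 0 calls between the bound and unbound fractions of sham kidneys were about as frequent in these genes as in all genes. In bound RNA 3 genes were higher and 1 lower than in unbound RNA (limma), against 4.83% and 4.10% of all genes (8.93% in all), and the median difference was -0.07 against -0.13 over all genes. E2f1 had 10.41, 8.32 and 7.17 in bound against 5.90, 5.49 and 5.86 in unbound RNA, so all bound arrays were higher despite their spread (2.88 ± 0.62, adjusted p = 0.0153). The other E2f1 probe sets gave 2.14 and 0.32, the second of them at or below the floor in every group. The first had an unbound day 0 mean below the floor, so its 2.14 is no measured size. The call ended with the mean of all 3, at 1.78 (adjusted p = 0.145), on its own 2 groups alone (adjusted p = 0.0753), and without array 4 or 5 (adjusted p = 0.0525 and 0.0585). Mcm4 had 10.67, 10.56 and 10.56 in bound against 9.18, 9.73 and 10.10 in unbound RNA, and Mcm3 had 8.96, 9.06 and 8.38 against 7.35, 7.74 and 8.01. Mcm3 and Mcm4 were higher by 1.10 and 0.93 (adjusted p = 0.04 and 0.0427), and Gmnn, at 9.15, 9.03 and 9.67 in bound against 10.54, 11.12 and 11.11 in unbound RNA, was lower (-1.64 ± 0.38, adjusted p = 0.0205). Single arrays decide these calls. The count of 4 was 2 when array 1, 6, 12 or 15 was left out, 1 when array 2 or 4 was, 0 when array 5 was, 7 when array 7 was, and 0 when the 4 bright arrays were, where 2.02% of all genes were called.

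On day 5 the bound fraction was higher than the unbound in 7 of the 46 genes and lower in 1 (limma), against 6.38% and 7.76% of all genes (14.1% in all). The median difference was 0.58, against 0.03 over all genes, and 23 genes had bound arrays all above unbound arrays (21.7% of all genes). Rrm1 had 11.14, 10.93 and 11.08 in bound against 10.01, 9.51 and 9.69 in unbound RNA (1.31 ± 0.20, adjusted p = 0.00347). Cdc45 had 7.40, 8.74 and 8.01 against 6.90, 6.19 and 6.35 (1.57 ± 0.40, adjusted p = 0.0234), and Ccne1 had 8.81, 9.76 and 9.13 against 8.01, 7.51 and 7.75 (1.48 ± 0.33, adjusted p = 0.0143). The fractions of these 3 genes did not overlap. Pole2, Mcm3, Lig1 and Rpa2 were higher by 0.83 to 1.22. Ccnd1 was lower in bound RNA, with 10.54, 11.33 and 10.16 against 12.53, 12.49 and 12.27 in unbound RNA (-1.75 ± 0.41, adjusted p = 0.0179). Rrm1 kept its call whichever array was left out, but with the mean of all its probe sets the difference was 0.35 (adjusted p = 0.673). Ccne1 lost its call without array 14 (adjusted p = 0.0618). Ccnd1 lost it without array 10, 12, 13 or 14 (adjusted p = 0.0553 to 0.0632) and with arrays centred on their medians, at -1.03 (adjusted p = 0.0889). The count of 8 was 5 when array 10 was left out, 3 when array 11 or 15 was, 2 when array 12 was, 1 when array 14 was, 12 when array 7 was, and 0 when the 4 bright arrays were, where 0 of all genes tested were called either and 9 of the 46 had an unadjusted p under 0.05.

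Other genes of the same pathway were described from lists of textbook members. Of 41 other replication genes tested, 17 were higher and 3 lower in bound RNA on day 5, 15 and 0 on day 2, and in unbound RNA 9 and 0 on day 5. Of all genes tested, 13.7% were higher and 10.0% lower in bound RNA on day 5, 5.60% and 3.67% on day 2, and 6.44% and 3.93% in unbound RNA, so the 3 lower of 41 (7.32%) are a smaller share than among all genes. Their median difference was 0.84 in bound RNA on day 5 and 0.98 on day 2, against 0.12 and 0.00 over all genes. Claspin (Clspn), a checkpoint mediator at the fork, was at least 28.9-fold higher on day 2 and at least 20.2-fold higher on day 5, from a day 0 mean at or below the floor. Chaf1b, a subunit of the chromatin assembly factor that deposits histones on new DNA, was at least 22.0-fold and at least 15.6-fold higher. Dbf4, the activator of the Cdc7 kinase that fires origins, rose 16.9-fold on day 2 and 19.8-fold on day 5 (adjusted p = 0.000389 and 0.000155). The 3 that fell on day 5 were Mcm9, Rfc1 and Rrm2b. Mcm9 differed by -1.18, with an adjusted p that rounds to the threshold of 0.05. Rfc1, the large subunit of the clamp loader, differed by -0.95 (adjusted p = 0.0291). Rrm2b, the p53-induced small subunit of ribonucleotide reductase, differed by -1.39 ± 0.25 (adjusted p = 0.00257). All 3 were chosen for naming after their values were seen.

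Of 30 G1 and G1-S regulators, 12 were higher and 3 lower in bound RNA on day 5, 12 and 0 on day 2, and in unbound RNA 9 and 0. Of all genes 13.7% were higher and 10.0% lower on day 5 in bound RNA, so the share of 3 lower in 30 is that of all genes. Their median was 0.61 on day 5 in bound RNA, against 0.12 over all genes. Ccna2, cyclin A2 of S phase, rose 28.8-fold on day 2 and 34.5-fold on day 5 (adjusted p = 1.75e-05 and 8.3e-06). The repressor E2f8, which turns E2F targets down again, rose 13.8-fold and 19.0-fold, and its relative E2f7 was at least 11.0-fold and at least 12.2-fold higher. Cdkn1c, the p57 inhibitor, fell by 1.89 ± 0.54 on day 5 (adjusted p = 0.0252). In the sham kidney Cdkn1c was 18.5-fold higher in bound than in unbound RNA (adjusted p = 0.00099). Podocyte markers ran the same way, with 4 of 4 lower in bound RNA on day 5 than on day 0 (median -1.79) and 4 of 4 higher in bound than in unbound RNA on day 0 (median 4.40), and their part in the Cdkn1c values was not tested.

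Mitosis genes gave a further comparison of the cycle, since they act after S phase. Of 23 tested, 23 were higher in bound RNA on day 5 and on day 2 and 21 in unbound RNA on day 5, with a median of 4.42 in bound RNA on day 5 when 7 genes below the floor on day 0 are set at their bound. Mki67, a marker of cycling cells in S phase as well as in mitosis that was counted in this list, rose 20.0-fold on day 5 in bound RNA (adjusted p = 2.44e-06). Cdkn1a is also a p53 target, and of 17 other p53 targets 1 was higher (5.88%) and 3 lower (17.6%) in bound RNA on day 5, against 13.7% and 10.0% of all genes, with a median of 0.11 against 0.12 over all genes.

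**Figure D5:**
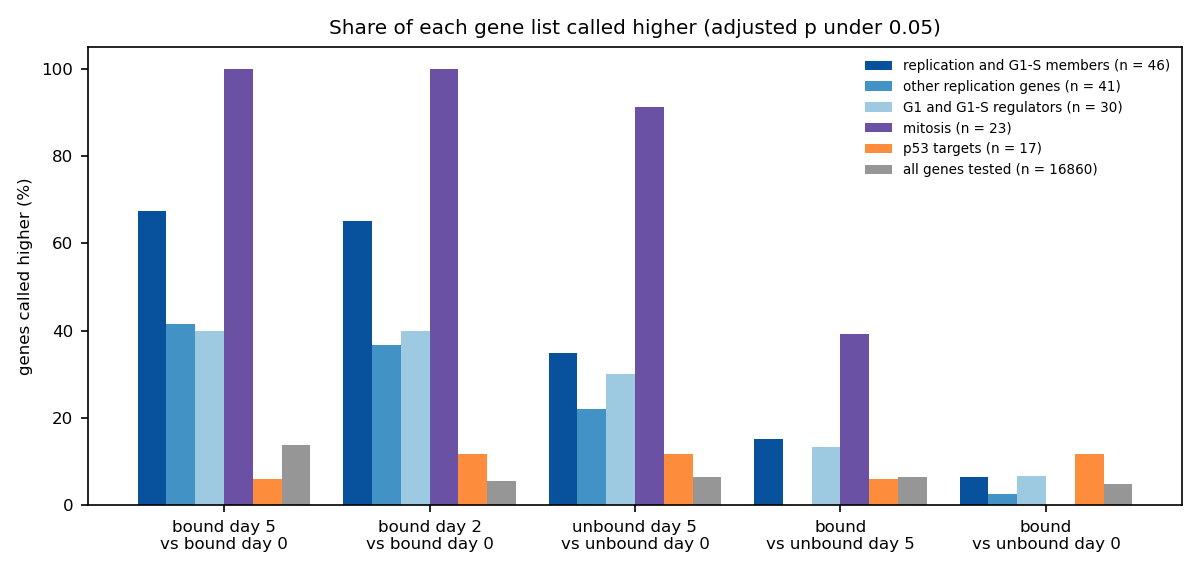
Bars give the percent of genes called higher (adjusted p under 0.05) in the 46 replication and G1-S genes, in 4 other lists and in all genes tested, for 5 comparisons. In bound RNA on day 5 the 46 genes stand at 67.4%, mitosis genes at 100% and p53 targets at 5.88%, against 13.7% for all genes.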

How the data were processed

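Polysomal RNA was amplified in 1 round with a NuGEN kit and labelled with biotin, per the labels. The authors deposited linear intensities of probe sets for 15 arrays, and how they summarised probes, corrected background or scaled arrays was not given in the sources used here. Intensities were transformed as log2(intensity + 1) and quantile normalized. Of 45101 probe sets, 64 were controls, and 34945 matched 1 gene, 932 several and 9160 none in the platform annotation. For each of 18193 genes the probe set that was brightest on average was used. Genes above the 25th percentile of an array on at least 3 arrays were kept (16860).

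The test was limma (version 3.58.1, R version 4.3.3) on 5 group means and 7 contrasts (10 residual degrees of freedom, prior 2.32). The p-values computed from the deposited intensities were adjusted over all genes tested by the Benjamini-Hochberg method, with a threshold of 0.05. Errors of differences are standard errors from this fit, in log2 units. Where the mean of a group was at or below the floor, its arrays were set to at least their floor and the fold is given as at least that fold. The number of arrays limits the precision.

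The 46 genes, the other lists and the tests were chosen with earlier results of these data known. The genes described in full were the 12 with the smallest adjusted p in the bound fraction, the 3 with the largest called differences in each direction in every other comparison, and Mcm2, Pcna, Rrm2, Ccne1, Ccne2, Ccnd1, Cdkn1a and E2f1 for their roles. Outside this rule, array values were also given for Cdc6 and for Tyms on day 0. Promoters came from a RefSeq table (GRCm38.p6). Of the 46 genes, 19 were read from probe sets of the _s, _x or _a kind, which can match several transcripts.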

Additional observations from a re-analysis of the deposited data

How the results depend on the processing

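Quantile normalization was set against centring arrays on their medians, which moved the median of all genes by over 0.1 in 5 comparisons. It became 0.34 for bound day 5 against day 0, 0.30 for bound day 5 against day 2, -0.22 for unbound day 5 against day 0, 0.41 for bound against unbound on day 5 and 0.53 for the change in enrichment. All genes called for bound against unbound on day 5 were then 1607 higher and 759 lower, against 1076 and 1309 as reported. For unbound day 5 against day 0 they were 638 and 726 against 1085 and 662, and for bound day 5 against day 0 they were 2406 and 1092 against 2318 and 1690.

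The counts of the 46 genes called for bound day 5 and bound day 2 against day 0 (32 and 30) were 20 and 7 when a contrast was fitted on its own 2 groups, and day 2 was 20 without the 4 bright arrays. For unbound day 5 against day 0 (16) the count was 29 with array weights, 25 on its own groups, 7 with median centring and 5 without the bright arrays. For bound against unbound on day 0 (4) it was 10 with array weights, 1 with median centring, with the mean of all probe sets or on its own groups, and 0 without the bright arrays. On day 5 (8) it was 14 with array weights, 4 with the mean of all probe sets and 0 without the bright arrays. For the change in enrichment (0) it was 11 with array weights and 2 on its own groups. The shares of all genes called with array weights, on own groups and with the mean of all probe sets are not given here. Leaving out 1 array gave 23 to 33 for bound day 5 and 23 to 36 for bound day 2 against day 0, 0 for day 5 against day 2, 7 to 19 for unbound day 5, 0 to 7 and 1 to 12 for bound against unbound on day 0 and day 5, and 0 to 2 for the change in enrichment. With the mean of all probe sets, the difference of Pola1 in bound RNA on day 5 was -0.07 and that of Rpa2 between fractions on day 5 was -0.16. With the brightness of an array as a covariate, calls ended for Mcm4, Gmnn, Prim2 and Cdk2 in bound RNA on day 5 (adjusted p = 0.0686, 0.0529, 0.0614 and 0.0615), Orc1 on day 2 (0.0823), E2f1 and Rrm2 in unbound RNA (0.0574 and 0.0592) and Mcm3 between fractions on day 0 (0.0613). The causes were not tested. No paired analysis was possible because array numbers run through the whole series, so that no number is shared between groups and none can show a pairing.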
